A study of Mus musculus with 3 samples.

Results

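The cells described here are those of cluster 5, 1 of the 7 Leiden clusters deposited for this series, selected on low counts of 2 genes, with neither *Mpo* nor *C1qb* at 4 UMIs per 10,000 UMIs of the cell. A UMI (unique molecular identifier) marks 1 captured messenger RNA molecule. *Mpo* (chr11:87793581-87804413, plus strand, GRCm38) encodes the neutrophil granule enzyme myeloperoxidase, and *C1qb* (chr4:136880129-136886187, minus strand) encodes a chain of complement C1q, which macrophages make. Among 1,572 cells of cluster 5, 714 met the rule, which is 45.4% (95% interval 42.9 to 47.9) of the cluster and 7.47% of the 9,562 cells in the series. They are called *Mpo*-*C1qb*-low cells, or low cells, below. A further 203 cells reached the limit for *Mpo* only (*Mpo* cells) and 655 reached it for *C1qb* (*C1qb* cells), 4 of them for both genes. Absence here means a low level and not zero: 337 of the 714 cells held at least 1 *Mpo* UMI and 145 held at least 1 *C1qb* UMI. The levels ran through the limit without a gap. The highest *Mpo* values inside it were 3.99, 3.97 and 3.91 UMIs per 10,000, and the lowest outside were 4.03, 4.08 and 4.25. For *C1qb* the corresponding values were 3.93, 3.91 and 3.88 inside and 4.03, 4.05 and 4.06 outside. From 3 per 10,000 up to the limit there were 29 cells for *Mpo* and 32 for *C1qb*.

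The study sorted endothelial cells from the hearts of adult GFP transgenic mice and re-aggregated them with E11.5 *Mesp1*(der) PSCs, PDGFRA+ stromal cells of the embryonic aorta-gonad-mesonephros region that descend from *Mesp1*-expressing mesoderm. Cells were taken fresh (0 h) and after 24, 48, 72 and 96 h with IL-3, SCF and Flt3 ligand, each at 100 ng/ml. All time points were mixed into 3 pools, A, B and C, for 10x Genomics 3′ v3 libraries, in proportions that are not stated here, and no pool served as a control. The fresh cells were sorted for GFP, CD31 and VE-Cad and against CD45, CD41, PDGFRB and PDGFRA, whereas for the cultured cells the methods name GFP, CD31 and VE-Cad and the exclusion of PDGFRA, and no CD45 or CD41 gate is stated. Barcodes carry a library suffix from 1 to 3 that is tied to no pool and to no time point in the material used here. The 714 cells were therefore treated as 1 sample and no time course can be given. No statistical test was made, since the groups compared were chosen on the same counts. Intervals are exact at the 95% level and cover counting error only, not differences between animals or cultures. For a count of 0, the share allowed is the share that 3 cells would make. The spread between libraries is given as the values for suffixes 1, 2 and 3.

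Suffixes 1, 2 and 3 held 256, 326 and 132 *Mpo*-*C1qb*-low cells, which were 42.6%, 50.5% and 40.5% of their cluster 5 cells. Depth differed between libraries. The median was 33,966 UMIs per cell, and 41,988, 14,401 and 65,103 by suffix, with a range of 4,770 to 155,354. Clusters 0, 1 and 2, endothelial clusters that serve below as a reference, held 6,923 cells with a median of 19,011 UMIs. They express some of the listed genes themselves and free RNA was not measured, so their values do not separate the 2 sources. Over all libraries 26 cells shared a barcode with a cell of another library, 1 of them among the 714.

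Blood cells arise from multipotent stem and progenitor cells that divide into erythroid, megakaryocytic, granulocytic, monocytic, mast cell and lymphoid branches, each marked by its own transcription factors and products. In the embryo the paper places primitive erythrocytes of the yolk sac first among the blood progenitors. Haematopoietic stem cells arise later from haemogenic endothelium, a step that requires the transcription factor RUNX1. The earliest red cells carry embryonic globins before adult globins take over. The lineages were read here from marker lists. A cell was counted for a lineage when at least 3 markers of its list stood above 0.5 UMIs per 10,000. Fewer UMIs pass this limit in a shallow cell than in a deep one. For example, 1 UMI stood at 1.51 in a cell of 6,619 UMIs, whereas 2 UMIs stood at 0.185 in a cell of 108,074. The lineage counts by suffix were not adjusted for this, and suffix 2 had the lowest median depth.

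Of the 5 genes that label these cells, 4 were widely present and the neutrophil marker was nearly absent. *Runx1* stood at 1.29 UMIs per 10,000 (suffixes 1 to 3, 1.16, 1.35 and 1.41) with a UMI in 572 of 714 cells. *Spi1*, which encodes the myeloid and lymphoid transcription factor PU.1, stood at 2.07 (2.15, 2.01 and 2.01) with a UMI in 562 cells. In clusters 0, 1 and 2 *Runx1* was at 0.0495 and *Spi1* at 0.0436. The authors made the clusters from these same counts and ordered their numbers by *Cdh5* at one end and *Runx1* at the other. Differences of blood genes from clusters 0, 1 and 2 therefore follow in part from the choice of cluster 5. *Kit*, the SCF receptor, stood at 0.643 (0.549, 0.765 and 0.665), against 0.260 in clusters 0, 1 and 2. *Ptprc*, which encodes the pan-leukocyte antigen CD45, stood at 0.633 (0.647, 0.631 and 0.616), with a UMI in 365 cells (51.1%). *Ptprc* was thus spread evenly over the libraries but not over the cells, as the sub-clusters below show. Both leukocyte genes stood lower than in the *C1qb* cells, with log2 ratios of -1.20 for *Spi1* (2.07 against 4.74) and -1.37 for *Ptprc* (0.633 against 1.64). *S100a9*, a subunit of the neutrophil protein calprotectin, stood at 0.0135, below its 0.0168 in clusters 0, 1 and 2. It had 36 UMIs in 20 cells, and 15 of these UMIs lay in 1 cell of suffix 2.

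Most neutrophil products were close to absent. None of the 714 cells reached the list of secondary granule genes, which allows a share of up to 0.420%, and none reached the eosinophil list. The primary granule list, which includes *Mpo* itself, was reached by 6 cells and the late neutrophil list by 5 cells, 3 of them in suffix 2. The *Mpo* cells gave 84, 14, 29 and 14 of 203 for the primary, secondary, late and eosinophil lists. Clusters 0, 1 and 2 gave 22 of 6,923 cells for the late list. Not all genes of these lists were as low. *Mpo*, held below the limit by the rule, had a UMI in 337 cells, and *Stfa1* of the late list stood at 0.232 with 620 UMIs. *Prtn3*, which encodes the primary granule protease proteinase 3, stood at 2.29 (2.29, 1.85 and 2.64) and had a UMI in 488 cells, against 0.0219 in clusters 0, 1 and 2, while *Elane*, its neighbour in the neutrophil programme, had 23 UMIs in all. *Prtn3* was highest in the monocyte-like sub-cluster, at 6.33. Since low *Mpo* chose the cells, low levels of genes that accompany it follow in part from the rule. *Spi1* was not shared by all of the cells, as it stood at 0.159 in the erythroid-like sub-cluster 1 and had no UMI in sub-cluster 12, both described below.

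When the 714 cells were clustered again, they formed 12 sub-clusters of 9 to 100 cells. A sub-cluster was called by a lineage only where at least 3 markers of that list were among its leading genes. On this rule 109 cells (15.3%, 12.7 to 18.1) were erythroid-like, 99 (13.9%) monocyte-like, 82 (11.48%) stem and progenitor-like and 168 (23.5%, 20.5 to 26.8) endothelial-like, and 256 cells (35.9%) in 6 sub-clusters stayed unnamed. Every gene of these cells entered the clustering, so the leading genes describe the groups and test nothing. How far the shares depend on the clustering is given in the closing section. The erythroid-like share was 1.26% when all cells were thinned to 5,000 UMIs and clustered again, and the other named shares also moved among the alternatives run.

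**Figure D1:**
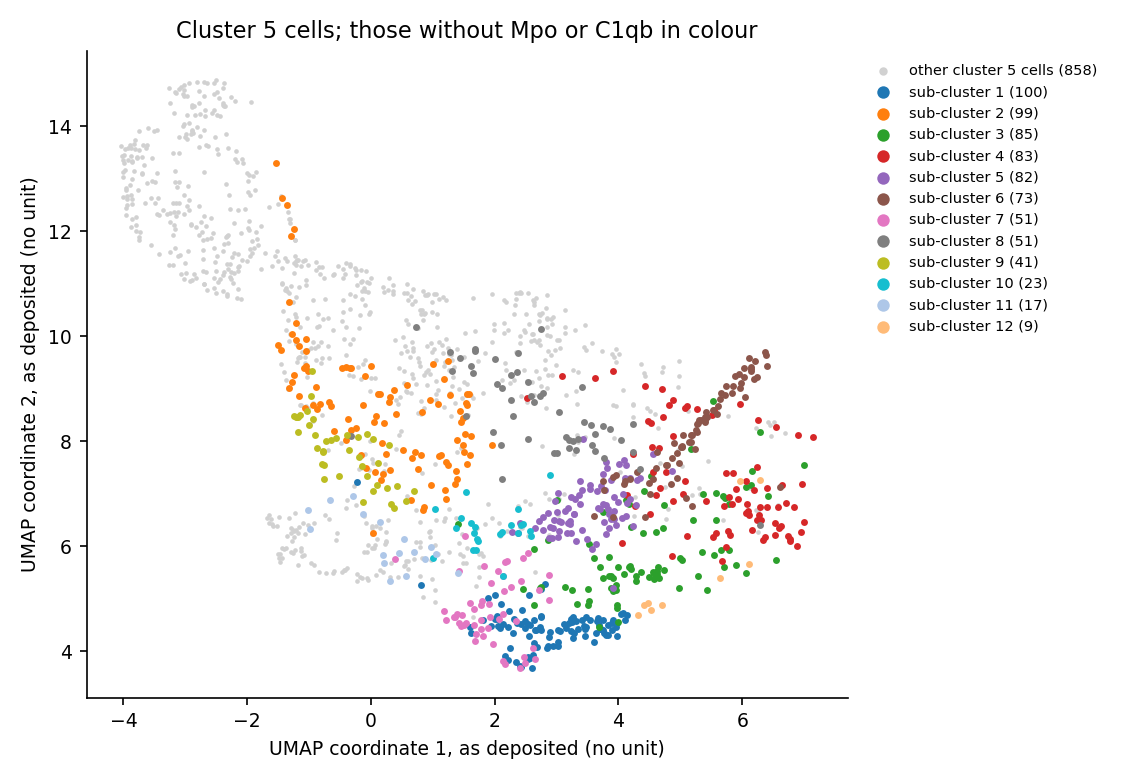
Position of the 1,572 cluster 5 cells on the 2 deposited UMAP axes (arbitrary units), with the 714 *Mpo*-*C1qb*-low cells coloured by sub-cluster 1 to 12 and the 858 other cells in grey. The low cells were spread over several regions of the map, and the 100 cells of sub-cluster 1 lay mostly at the low end of the second axis, beside sub-cluster 7.

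The largest sub-cluster, sub-cluster 1, was erythroid-like and held 100 cells, 48, 29 and 23 from suffixes 1 to 3. *Klf1*, the master transcription factor of red cell genes, stood at 2.32 UMIs per 10,000 with a UMI in all 100 cells, against 0.0031 in clusters 0, 1 and 2. *Gata1*, which drives erythroid and megakaryocytic genes, stood at 1.13 with a UMI in 97 cells. *Car2*, the red cell carbonic anhydrase, stood at 5.04 in all 100 cells, and *Epor*, the erythropoietin receptor, at 0.848 in 92 cells. Genes of haem synthesis and the red cell surface led the same sub-cluster. *Cpox*, which encodes coproporphyrinogen oxidase, stood at 5.24 against 0.749 in the remaining low cells. *Blvrb*, biliverdin reductase B, stood at 4.01 against 0.627, *Smim1*, the Vel blood group protein, at 2.49 against 0.355, and *Ermap*, an erythroid membrane protein, at 1.21 against 0.0961. The leukocyte genes were low in these cells, with *Ptprc* at 0.0179 (a UMI in 10 of 100 cells) and *Spi1* at 0.159.

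Globin was uneven in sub-cluster 1. *Hbb-bs*, an adult beta-globin, had a UMI in 47 of the 100 cells, with a median of 0 and a maximum of 40.6 UMIs per 10,000. *Hbb-bh1*, an embryonic beta-like globin, had a UMI in 48 cells with a maximum of 33.3, and *Hba-a1*, an alpha-globin, in 58 cells. *Alas2*, the first enzyme of erythroid haem synthesis, had a UMI in 17 cells, and *Slc4a1*, the band 3 anion exchanger of the red cell membrane, in 0 of 100, which allows a share of up to 3%. The sub-cluster thus combined a *Klf1* UMI in every cell with globin UMIs in part of the cells.

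Sub-cluster 12 held 9 cells with a globin content of another order. *Hbb-y*, the embryonic epsilon-like beta-globin (chr7:103851749-103853216, minus strand), took 784 to 3,208 UMIs per 10,000 in the 9 cells, with a median of 1,999. *Hba-x*, the embryonic zeta-like alpha-globin (chr11:32276400-32278116, plus strand), took 524 to 1,428 with a median of 1,124, and *Hbb-bh1* took 199 to 539 with a median of 336. All 9 cells were thus high for all 3 embryonic globins. *Hba-a1* stood at 101 to 470, with a median of 294, and *Hbb-bt*, an adult beta-globin, at 0.486 to 210, with a median of 83.2. *Hbb-bs* was low beside them, with a median of 0.486 and a maximum of 15.2. Reads of *Hba-a1* and *Hba-a2* can be shared between these nearly identical genes, so their split is uncertain.

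The 9 cells also carried membrane and haem genes of later red cells. *Alas2* stood at 3.40 to 9.73, and *Slc4a1* and *Alas2* each had a UMI in all 9 cells. No UMI of *Ptprc* or *Spi1* was found in them, and *Runx1* and *Kit* had a UMI in 1 cell each. The 9 cells came from suffix 1 (5 cells) and suffix 2 (4 cells). Of the 132 low cells of suffix 3, 0 lay in sub-cluster 12, which allows a share of up to 2.27%.

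These 9 cells set the globin levels of the whole group. They held 99.2% of all *Hbb-y* UMIs of the 714 cells, 99.4% of those of *Hba-x*, 89.1% of *Hbb-bh1* and 93.9% of *Hba-a1*, but 4.86% of *Hbb-bs*, of which 67.8% lay in sub-cluster 1. *Hbb-y* accordingly stood at 32.3, 38.1 and 0.108 in suffixes 1 to 3. Without the 9 cells *Hbb-y* was at 0.176 and *Hba-x* at 0.0784 in the remaining cells, below the 0.50 and 0.225 of clusters 0, 1 and 2.

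**Figure D2:**
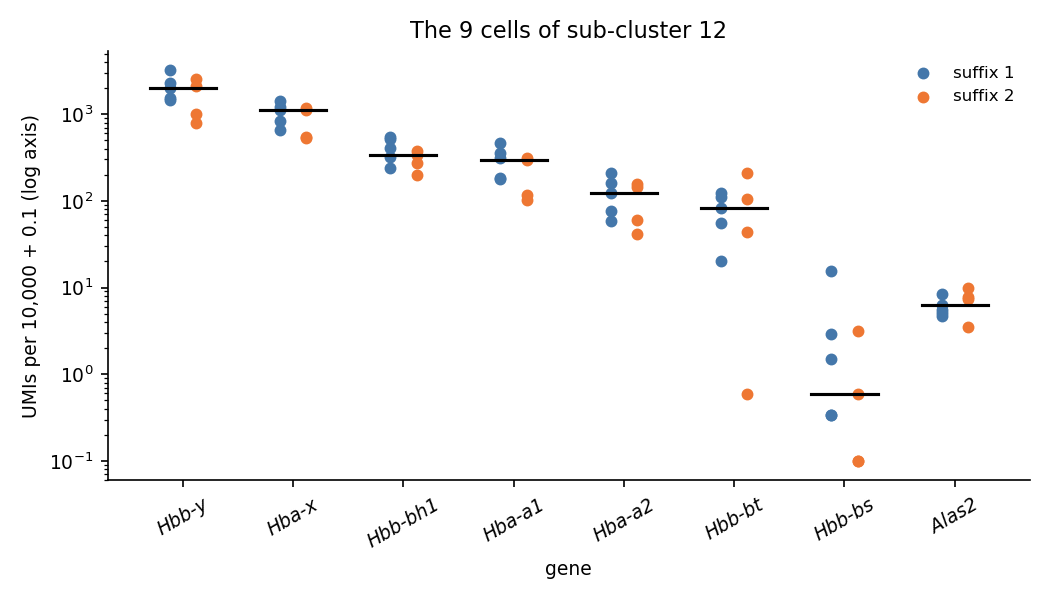
UMIs per 10,000 UMIs (plus 0.1, log axis) of globin and red cell genes in each of the 9 cells of sub-cluster 12, blue for library suffix 1 (5 cells) and orange for suffix 2 (4 cells), with bars at the medians. *Hbb-y* lay highest, with a median of 1,999, followed by *Hba-x* at 1,124, while *Hbb-bs* had a median of 0.486.

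The sequence before the start of *Hbb-y* is shown because it was the gene with the most UMIs in these 9 cells. It is taken from RefSeq on GRCm38.p6 and covers the 120 bases before the RefSeq start, chr7:103853208-103853327 on the minus strand, written 5′ to 3′. The GENCODE M21 gene begins upstream of that start, so the last 9 bases of the run lie inside the gene as given above. Capitals mark the motifs CACCC and CCAAT, the usual names of 2 promoter elements of globin genes.

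*Hbb-y*: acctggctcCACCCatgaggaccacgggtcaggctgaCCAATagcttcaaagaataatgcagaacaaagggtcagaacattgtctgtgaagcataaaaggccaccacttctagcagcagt

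Both strands were searched. CACCC was found in 31.7% and CCAAT in 21.3% of windows of the same length before the 32,851 starts in the RefSeq table. The matched motifs did not overlap each other in *Hbb-y*, and a match describes the letters only.

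Counted cell by cell, 208 of the 714 cells (29.1%, 25.8 to 32.6) reached the erythroid list, 73, 99 and 36 from suffixes 1 to 3, against 43 of 6,923 cells in clusters 0, 1 and 2. After thinning to 5,000 UMIs the count was 132 of 712. The *Mpo* cells gave 8 of 203 and the *C1qb* cells 8 of 655. Beyond the erythroid-like sub-clusters, erythroid genes were also high in sub-cluster 3, an endothelial-like group described below, and in sub-cluster 7. Sub-cluster 7 (51 cells, 23, 18 and 10 from suffixes 1 to 3) stayed unnamed. Among its leading genes were *Gata2*, an early progenitor and mast cell factor, at 1.34 against 0.403 in the other low cells, and *Zfpm1*, which encodes the GATA1 partner FOG1, at 2.90 against 1.08. *Gata1* stood at 0.796 and *Car2* at 4.25 in it, while *Klf1*, at 0.404, was below its 2.32 in sub-cluster 1. The megakaryocytic gene *Itga2b* (integrin alpha-IIb, CD41), at 0.850, had its highest level of all 12 sub-clusters here. The list of megakaryocyte and platelet genes was reached by 92 cells, 60 of them in suffix 2, the library of lowest depth, and by 34 after thinning. That list contains *Vwf*, which endothelial cells also express, and no sub-cluster was led by 3 of its genes.

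Stem and progenitor genes marked sub-clusters 5, 6 and 10. Sub-cluster 5 (82 cells, 33, 24 and 25) was stem and progenitor-like. *Hlf*, a transcription factor of haematopoietic stem cells, stood at 1.40 UMIs per 10,000 against 0.184 in the other low cells and had a UMI in 76 of 82 cells. *Hoxa9*, which sustains stem and progenitor self-renewal, stood at 1.37 against 0.256, and *Mycn* at 1.97 against 0.377. *Angpt1*, a TIE2 ligand made by stem cells among others, stood at 1.37 against 0.279. All 82 cells had a UMI of *Cd34* (6.15), a surface antigen of progenitors and endothelium, and of *Hmga2* (9.32), a fetal chromatin protein. *Kit* was at 1.32, and *Cdh5*, which encodes VE-cadherin, at 0.984 with a UMI in 69 of the 82 cells. Sub-cluster 5 therefore held stem cell and VE-cadherin transcripts together, at a *Cdh5* level below the 4.97 of clusters 0, 1 and 2.

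Sub-cluster 6 (73 cells, 26, 31 and 16) stayed unnamed, since no list had 3 markers among its leading genes. It had the highest *Runx1* (2.88) and *Kit* (1.67) of the 12 sub-clusters and *Gfi1*, a repressor that acts in the endothelial-to-haematopoietic transition, at 1.40 against 0.0781 in the other low cells. *Hlf* (1.07), *Hoxa9* (1.34), *Mecom* (1.68) and *Procr* (1.08), all genes of stem cells, were also present. *Mecom* and *Procr* are expressed by endothelium too and stood at 0.710 and 0.371 in clusters 0, 1 and 2. Endothelial *Cdh5* (2.70) and *Vwf* (1.72) and the contractile and matrix genes *Acta2* (2.71 against 0.134), *Fn1* (7.01 against 0.491) and *Sfrp2* (2.31 against 0.142) completed the pattern. *Ptprc* was low, at 0.193, with a UMI in 23 of 73 cells. The imprinted fetal growth genes *Igf2* (18.4) and *H19* (14.4) were highest in sub-cluster 6, above their 12.1 and 9.55 in clusters 0, 1 and 2. Stromal markers were not, with *Pdgfra* at 0.0297 and *Col1a1* at 0.00496. The stromal list of 7 genes was reached by 1 of the 714 cells, and its summed level was 0.0779 to 0.108 across libraries.

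Sub-cluster 10 (23 cells, 15, 5 and 3) combined *Hoxa9* (1.39) with genes of early lymphoid and myeloid progenitors. *Flt3*, the Flt3 ligand receptor, stood at 0.554 with a UMI in 19 of 23 cells, against 0.102 over all 714. *Il7r*, the IL-7 receptor, stood at 0.527 with a UMI in 10 cells, and *Notch1* at 0.927. *Mpo* was at 1.90, the highest of the sub-clusters, and *Ptprc* at 1.24 with a UMI in all 23 cells. *Rag1*, the recombinase of lymphocyte receptor genes, had a UMI in 3 of the 23 cells and in 1 other low cell. Further genes that led it were *Dlk1* (1.29 against 0.197), an imprinted NOTCH-family ligand, and *Dnmt3b* (3.18 against 1.04), a DNA methyltransferase.

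As a list, stem and progenitor genes did not separate blood from endothelium. At least 3 of the 15 were found in 512 of 714 low cells (71.7%), but also in 4,978 of 6,923 cells of clusters 0, 1 and 2 (71.9%), where *Cd34* (6.29) and *Sox4* (3.72) were high. The share is therefore at the level of the reference. Single genes differed. *Myb*, which definitive blood progenitors need, stood at 1.15 in the low cells and 0.0137 in clusters 0, 1 and 2. *Adgrg1*, the stem cell receptor GPR56, stood at 1.25 and 0.0989, *Hlf* at 0.313 and 0.0186, and *Angpt1* at 0.395 and 0.0152.

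Sub-cluster 2 (99 cells, 49, 29 and 21) was monocyte-like. *Csf1r*, the M-CSF receptor, stood at 2.46 with a UMI in all 99 cells, against 0.229 in the other low cells. *Cx3cr1*, the fractalkine receptor, stood at 2.85 with a UMI in 96 cells, and *Irf8*, a factor of monocyte and dendritic cell fate, at 2.64 with a UMI in 96 cells. *Hp* (haptoglobin, 1.98 against 0.153), *Fcgr1* (the high-affinity IgG receptor CD64, 1.07 against 0.0910), *Cybb* (the phagocyte oxidase subunit gp91phox, 1.25 against 0.143) and *Ccl3* (an inflammatory chemokine, 2.63 against 0.258) led it too. *Ly6c2* and *Ccr2*, markers of classical blood monocytes, were low, at 0.0421 and 0.284. *Spi1* was at 4.18 and *Ptprc* at 1.31. Over all low cells the monocyte list was reached by 222 cells (31.1%) and by 130 after thinning, against 254 of 6,923 (3.67%) in clusters 0, 1 and 2. The *Mpo* cells gave a like share, 63 of 203 (31.0%), and the *C1qb* cells 643 of 655 (98.2%). The monocyte list thus did not separate monocytes from macrophages, and the name of sub-cluster 2 follows the naming rule only. The macrophage list was reached by 118 low cells (16.5%), 77 of them in suffix 2, and by 49 of the 99 cells of sub-cluster 2. It was reached by 9.36% of the *Mpo* cells, 99.5% of the *C1qb* cells and 3.08% of clusters 0, 1 and 2. That list contains *C1qb*, on which the cells were chosen.

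**Figure D3:**
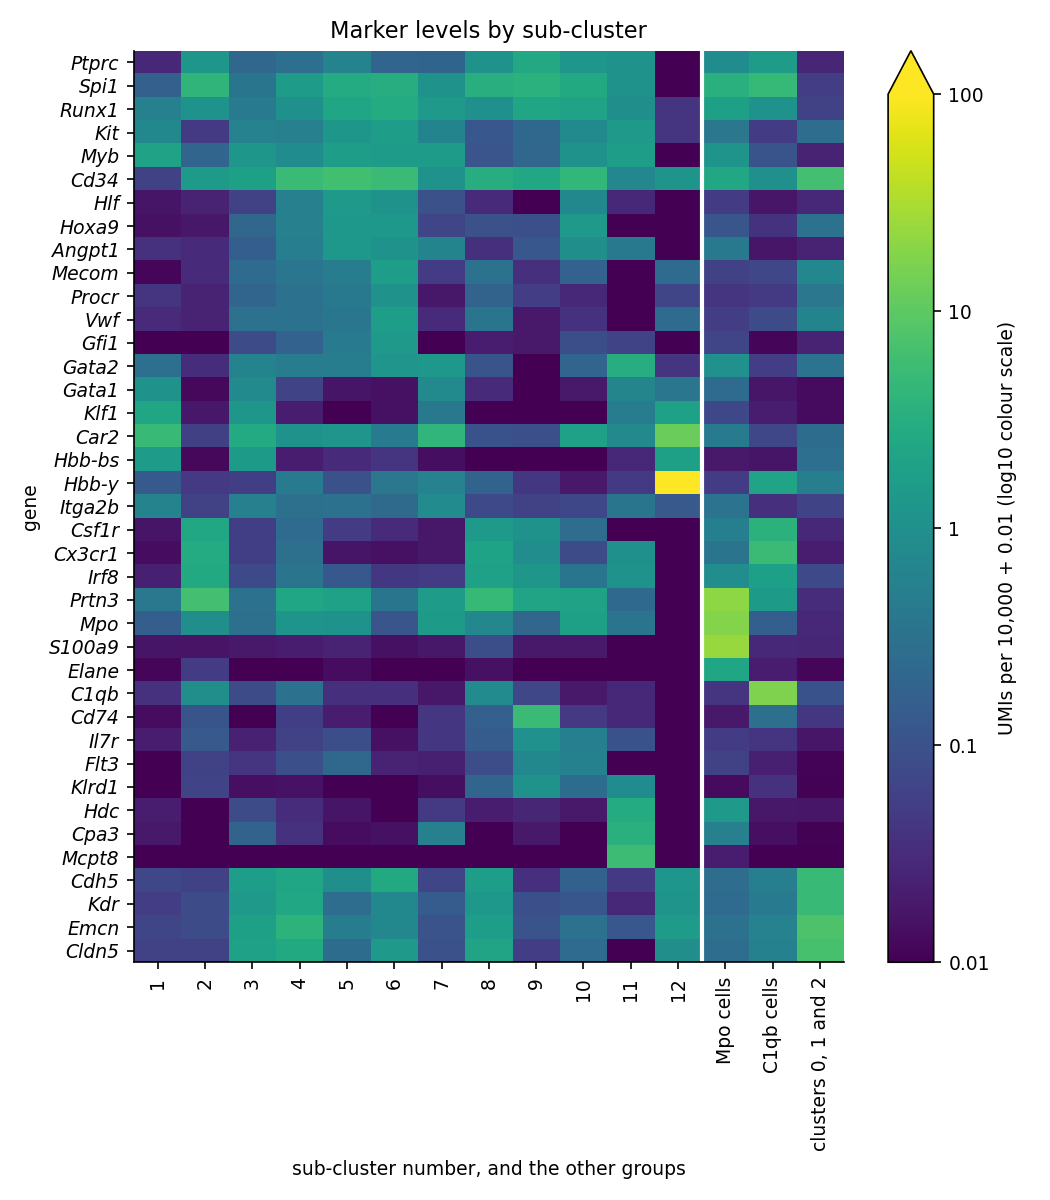
Levels of 39 marker genes (log10 of UMIs per 10,000 plus 0.01, with the colour scale ending at 100) in the 12 sub-clusters, the 203 *Mpo* cells, the 655 *C1qb* cells and clusters 0, 1 and 2. *Klf1* stood at 2.32 in sub-cluster 1, *Csf1r* at 2.46 in sub-cluster 2, *Hlf* at 1.40 in sub-cluster 5 and *Hbb-y* at 1,822 in sub-cluster 12, while *S100a9* was at 24.0 in the *Mpo* cells and at most 0.0827 in any sub-cluster.

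Endothelial genes were not confined to 1 library, since sub-cluster 6, with its *Cdh5* and *Vwf*, took 26, 31 and 16 cells from suffixes 1 to 3. They were also prominent in sub-clusters 3, 4 and 8, and these 3 groups came mostly from 1 library. Suffix 2 gave 71 of 85 cells of sub-cluster 3, 66 of 83 of sub-cluster 4 and 34 of 51 of sub-cluster 8. Their median depths were 9,633, 8,547 and 17,680 UMIs. Sub-clusters 3 and 4 were endothelial-like. Sub-cluster 4 was led by *Aplnr*, the apelin receptor of venous and angiogenic endothelium, at 1.60 against 0.132 in the other low cells, *Emcn* (endomucin) at 3.85 and *Kdr* (VEGF receptor 2) at 2.41. In it the blood genes *Runx1* (1.02) and *Spi1* (1.57) stood above their levels in clusters 0, 1 and 2, and *Hlf* was at 0.533. Sub-cluster 3 joined *Fabp4*, a fatty acid carrier of capillary endothelium, at 3.67 against 0.524, and *Cldn5*, a tight junction claudin, at 1.94 against 0.569, with the erythroid genes *Klf1* (1.30, a UMI in 57 of 85 cells) and *Gata1* (0.824, 48 cells). By suffix, *Fabp4* stood there at 4.26, 6.04 and 0.0266, so it was not high in suffix 3, whereas *Cldn5* stood at 2.04, 2.25 and 1.45. Sub-cluster 8 stayed unnamed and joined *Gja4*, the gap junction protein of arterial endothelium, at 1.06 against 0.180, and *Cldn5* at 2.15 with the myeloid genes *Cx3cr1* (2.08) and *Csf1r* (1.39).

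The endothelial list summed to 18.5 UMIs per 10,000 in these 3 sub-clusters, 4.57 in the other 9 and 49.0 in clusters 0, 1 and 2. Its 11 markers all had UMIs in the low cells, and at least 3 of them were above 0.5 per 10,000 in 390 cells, 241 of these in suffix 2. Without the 3 sub-clusters 176 cells did. Both the endothelial and the erythroid list were reached by 76 cells (10.6%, 8.48 to 13.1). Doublet calling marked 7 of the 714 cells, of which 2, 1 and 4 lay in sub-clusters 3, 4 and 8. It marked 18 of all 9,562 cells (0.188%) and was treated as having failed, so no cell was removed.

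Sex-linked transcripts of both kinds were found in part of the cells. The methods describe adult female donors of the endothelium, yet 413 of the 714 cells (57.8%) held a UMI of the Y-linked genes *Ddx3y*, *Eif2s3y*, *Kdm5d* or *Uty*, and 348 (48.7%) held a UMI of *Xist*, the RNA of the inactive X chromosome. The Y-linked share was 54.1% in clusters 0, 1 and 2 and between 46.9% and 68.0% over the 3 libraries. Most cells held 1 kind only, with 319 Y-linked only, 254 *Xist* only, 94 both (13.2%, 10.8 to 15.9) and 47 neither. Both kinds were held by 56 of 219 cells of sub-clusters 3, 4 and 8 (25.6%, 19.9 to 31.9, median depth 9,883 UMIs) and by 38 of 495 cells of the other sub-clusters (7.68%, 5.49 to 10.4, median depth 39,182). The share was thus higher at the lower depth. Within suffix 2 it was 35 of 171 (20.5%, 14.7 to 27.3) against 16 of 155 (10.3%, 6.02 to 16.2). In clusters 0, 1 and 2 it was 8.91%, in the *Mpo* cells 10.8% and in the *C1qb* cells 13.4%. Among the other sub-clusters it reached 22.2% of the 9 cells of sub-cluster 12 and 17.4% of the 23 cells of sub-cluster 10. Whether the cells of sub-clusters 3, 4 and 8 hold transcripts of more than 1 cell was not tested beyond these values.

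**Figure D4:**
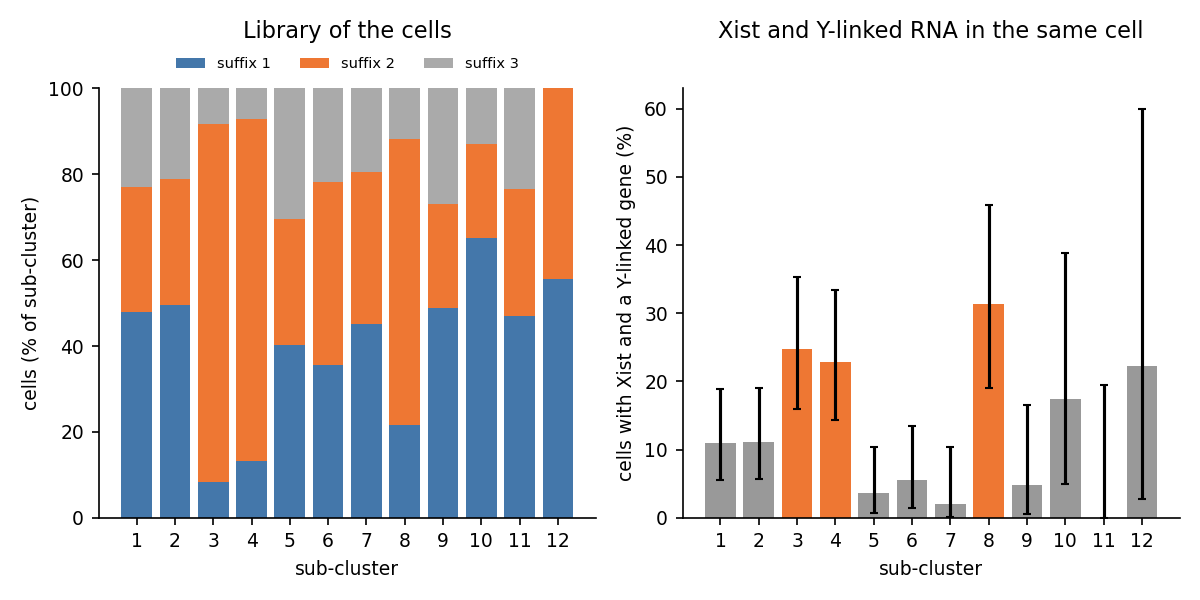
Left, the share of each sub-cluster's cells (%) from library suffixes 1, 2 and 3; right, the share of cells (%, with 95% exact intervals) that held UMIs of both *Xist* and a Y-linked gene, with sub-clusters mostly from suffix 2 in orange. Sub-clusters 3, 4 and 8 took 83.5%, 79.5% and 66.7% of their cells from suffix 2, and 24.7%, 22.9% and 31.4% of their cells held both kinds.

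The small sub-cluster 11 (17 cells, 8, 5 and 4) held mast cell and basophil genes beside granzymes, carried by few cells each. *Gata2* stood at 3.08, the highest of the sub-clusters, with a UMI in 15 of 17 cells. *Hdc*, which makes histamine, stood at 2.90 with a UMI in 13 cells, and *Cpa3*, the mast cell carboxypeptidase, at 3.43 with a UMI in 11. The mast cell and basophil list was reached by 10 of the 714 cells (1.40%, 0.674 to 2.56), 3, 4 and 3 by suffix, and 9 of them lay in sub-cluster 11. Clusters 0, 1 and 2 gave 0 of 6,923, and the *Mpo* cells 23 of 203. The strongest cell, in suffix 2, held 166 UMIs of *Mcpt8*, a basophil protease, 94 of *Cpa3*, 27 of *Fcer1a*, the IgE receptor alpha chain, and 18 of *Cma1*, mast cell chymase, among 13,136 UMIs. A cell of suffix 3 held 130 *Mcpt8* and 16 *Fcer1a* UMIs. *Gzmc* and *Gzmb*, cytotoxic granule proteases, led the sub-cluster at 21.5 and 24.6 UMIs per 10,000, but only 2 and 5 of the 17 cells had a UMI of them, so these means rest on those cells. *Gzmb* was highest in the 2 *Fcer1a* cells just described, at 164 and 225, against 72.0 and 96.5 in the 2 cells with *Gzmc*.

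Lymphoid cells were rare and each could be described singly. Of the 714 cells, 9 (1.26%, 0.578 to 2.38) reached a B, T or natural killer list, with 5,672 to 40,017 UMIs each. The B list was reached by 2 cells, both in suffix 1. They held 32 and 19 UMIs of *Cd79a* and 22 and 17 of *Cd79b*, the signalling chains of the B cell receptor, 11 and 13 of *Ms4a1* (CD20) and 2 and 2 of *Pax5*, the B lineage factor. The T list was reached by 2 cells. The cell of suffix 1 held 8, 10 and 14 UMIs of the CD3 chain genes *Cd3e*, *Cd3d* and *Cd3g*, and that of suffix 3 held 3, 17 and 8 with 4 UMIs of the kinase gene *Lck*. All 4 of these cells lay in sub-cluster 9, and none was a B and a T list cell at once.

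The natural killer list was reached by 6 cells, 1 of them also a T list cell. In sub-cluster 11, 2 cells of suffix 1 held 68 and 88 UMIs of *Gzma*, 63 and 32 of *Nkg7*, both cytotoxic granule genes, and 7 and 8 of *Ncr1*, the receptor NKp46. A cell of suffix 2 in sub-cluster 9 held 20, 22 and 4 UMIs of these genes. The remaining 2 cells had 1 and 10 UMIs of *Nkg7* and none of *Ncr1*. The cell with 10 *Nkg7* UMIs also held the CD3 chain genes *Cd3d* and *Cd3g*, at levels of 3.15 and 7.88, and no *Cd3e*. It did not reach the T list, so the lists alone do not settle whether it was a natural killer or a T cell. Clusters 0, 1 and 2 gave 5, 1 and 1 of 6,923 cells for the B, T and natural killer lists, and the *Mpo* cells 0 of 203 for each.

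Sub-cluster 9 (41 cells, 20, 10 and 11) was a mixture with the highest *Ptprc*, 2.61, and a UMI of it in all 41 cells. *Il7r* stood at 1.05 in 27 cells, *Ccr2* at 1.30 in 32 and *Klrd1*, the killer cell receptor CD94, at 1.08 in 25. *Mndal* and *Ifi203*, interferon-inducible genes, stood at 3.30 against 0.129 and 1.31 against 0.0524. The antigen presentation genes that led it, *H2-Aa* and *Cd74*, had a UMI in 6 and 16 cells only. One of these, in suffix 3, held 377 *Cd74*, 106 *H2-Aa* and 4 *Xcr1* UMIs, *Xcr1* being a receptor of cross-presenting dendritic cells. Another, in suffix 1, held 33 UMIs of *Ccr7*, the lymph node homing receptor. The dendritic cell list was reached by 9 of the 714 cells (1.26%), 2 of which were the B list cells, and by a like share of the *C1qb* cells, 8 of 655 (1.22%), against 40 of 6,923 (0.578%) in clusters 0, 1 and 2. The lymphoid priming list, whose 8 genes include *Notch1* and *Ikzf1*, was reached by 27 cells (3.78%) and by 7 after thinning.

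Cell cycle genes were at a like level in the low cells and the rest of cluster 5. The 14 S phase genes summed to 24.3 UMIs per 10,000 (24.0 to 24.4 over the libraries), against 24.9 in the *Mpo* cells and 21.8 in the *C1qb* cells. The 14 G2 and M phase genes summed to 30.1, 30.7 and 32.6 in the same order. The 15 cytokine receptor genes summed to 2.94 in the low cells, 3.83 in the *Mpo* cells and 5.68 in the *C1qb* cells, and *Il3ra*, the IL-3 receptor alpha chain, had a UMI in 243 of the 714. The fetal genes summed to 14.8, 7.62 and 7.65, and to 49.7 in clusters 0, 1 and 2, where *Mest* was at 20.4. Among them *Igf2bp1*, a fetal RNA-binding protein, stood at 1.73 with a UMI in 650 of the 714 cells, and *Lin28b*, a repressor of let-7 microRNAs, at 0.345 in 424 cells.

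The low cells were then set beside the other cells of cluster 5. Because *Mpo* and *C1qb* chose all 3 groups, these values are descriptions, and genes that accompany *Mpo* or *C1qb* had to differ. A gene was ranked if it reached 1 UMI per 10,000 in the higher group and was called if it differed at least 2-fold in the same direction in every library. Against the *Mpo* cells 1,741 genes were ranked, 34 were called higher in the low cells (1.95%) and 56 lower (3.22%), and the median log2 ratio was 0.02. Against the *C1qb* cells 1,854 were ranked, 38 were called higher (2.05%) and 164 lower (8.85%), with a median of 0.12.

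Against the *Mpo* cells the globins led the higher genes, with log2 ratios of 9.47 for *Hba-x* (8.77 to 10.28), 9.17 for *Hbb-y* and 8.40 for *Hbb-bh1*. The 9 cells of sub-cluster 12 held most of these UMIs. In the other low cells *Hba-x*, *Hbb-y* and *Hbb-bh1* stood at 0.0784, 0.176 and 0.552, against 0.0169, 0.0402 and 0.0148 in the *Mpo* cells. All 4 ranked genes of the erythroid list were higher, with a median of 5.66. Among them *Car2*, which is not a globin, was higher by 2.27 (2.17 against 0.449 UMIs per 10,000). Outside the list *Cpox* was higher by 2.41. The imprinted genes *H19* (2.36), *Igf2* (2.34) and *Cdkn1c* (2.81), a cell cycle inhibitor, were higher as well. The lower genes were neutrophil products. *S100a8* and *S100a9* differed by log2 ratios of -11.47 and -10.80, *Elane* by -8.08, *Stfa1*, a stefin of the neutrophil cluster whose reads near-identical copies can share, by -5.38 and *Prtn3* by -3.19. *Ngp* and *Camp*, secondary granule proteins, had 1 and 2 UMIs in the low cells, so their ratios of -12.62 (-17.92 to -10.14) and -11.87 (-14.91 to -10.01) are poorly bounded. *Prg2*, an eosinophil granule protein, had 3 UMIs, with a ratio of -10.67 (-12.95 to -9.12). The mast cell and basophil genes *Hdc* and *Gata2* were also lower in the low cells, *Gata2* at 0.488 against 1.04. Stem and progenitor genes were mostly alike, with log2 ratios of 0.04 for *Cd34* (-0.03 to 0.11) and -0.04 for *Myb* (-0.14 to 0.06).

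Against the *C1qb* cells all 7 ranked macrophage genes, the selecting gene *C1qb* among them, and all 6 ranked monocyte genes were lower. *Mrc1*, the mannose receptor, differed by a log2 ratio of -6.99 (0.0269 against 3.41 UMIs per 10,000), *C1qa* by -6.35, *Csf1r* by -2.54, *Cx3cr1* by -2.83 and *Apoe*, apolipoprotein E, by -2.37. *Hmox1*, haem oxygenase, and *Dab2*, an endocytic adaptor, were lower by -4.50 and -4.61. All 4 ranked stem and progenitor genes were higher, with 5.08 for *Adgrg1*, 3.55 for *Myb*, 1.31 for *Cd34* and 1.11 for *Sox4*. *Car2* (5.15) and *Zfpm1* (4.10) were higher too, and so was *Hmga2* (2.80). *Hbb-y* was higher by 3.44 and *Hba-a1* by 3.80. Without the 9 cells of sub-cluster 12 these directions turned, with -3.59 for *Hbb-y*, -4.12 for *Hba-x* and -0.21 for *Hba-a1*.

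**Figure D5:**
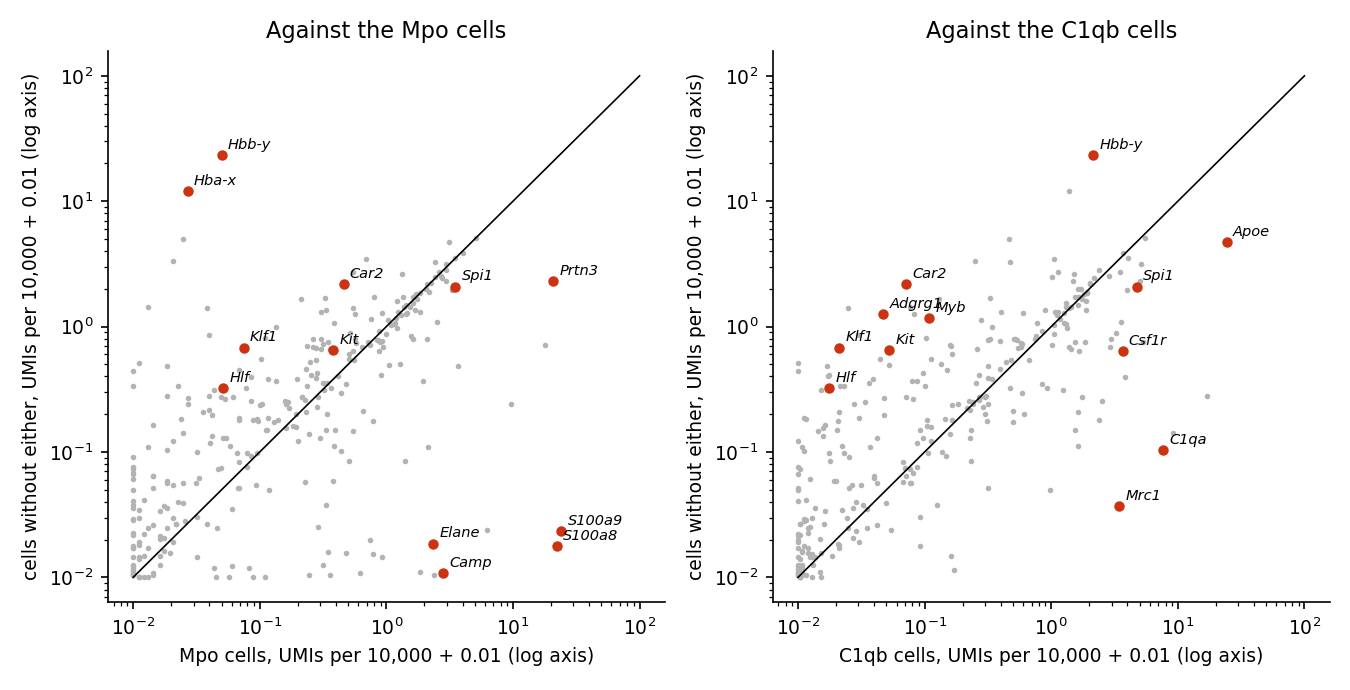
Levels of the listed marker genes (UMIs per 10,000 plus 0.01, log axes) in the 714 *Mpo*-*C1qb*-low cells against the 203 *Mpo* cells (left) and the 655 *C1qb* cells (right), with a line of equality. *S100a8* lay farthest below it on the left at 0.00785 against 22.3, *Mrc1* lay at 0.0269 against 3.41 on the right, and the embryonic globins lay above it in both.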

How the data were processed

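Single-cell RNA was measured in 3 pools of sorted endothelium (10x Genomics 3′ v3). The authors deposited UMI counts per gene and cell, made with Cell Ranger 3.1.0 on mm10 (GRCm38) and joined with batch-effect removal, and the submitters' processing notes also name Seurat 3.1.5. The authors deposited UMAP coordinates, an arbitrary score on 2 axes, with the Leiden cluster. Their normalized log table was not used. Gene names are those of GENCODE M21 (27,645 of 27,998 identifiers). *Cebpd*, *Ighm*, *Trbc1* and *Trbc2* were not found.

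Levels are summed UMIs per 10,000 with exact Poisson intervals, shares have Clopper-Pearson intervals and ratios conditional binomial intervals. Sub-clusters came from Leiden clustering (2,000 overdispersed genes, 30 principal components, 10 neighbours, resolution 1, seed 0; scanpy 1.11.5). Naming needed 3 list markers among the 20 genes with the largest ratio, each with a UMI in at least 25% of cells. Thinning drew 5,000 UMIs per cell (seed 1) and left out 2 cells. Doublets were searched for with Scrublet per library. The genes named are those of 30 lists, the 10 genes that led each sub-cluster and the 10 that differed most in each direction. Members and lists were chosen with earlier results of these data known. Some listed genes are not reported here. The ranking was tested on simulated data. Alternatives are in the closing section. Python 3.11.15, numpy 2.4.6 and scipy 1.17.1 were used.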

Additional observations from a re-analysis of the deposited data

How the results depend on the processing

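The number of low cells was 589 and 896 with limits of 2 and 8 UMIs per 10,000 and 689 after thinning, and 388 to 582 with 1 library left out. The clustering gave 8 to 16 sub-clusters. The shares of named cells moved with it. At resolution 0.5 the monocyte-like, stem and progenitor-like, erythroid-like and endothelial-like shares were 19.6%, 18.5%, 19.6% and 30.7%. At resolution 1.5 the monocyte-like share was 8.54% and the erythroid-like share 10.9%, and with 1,000 genes the endothelial-like share was 27.5%. After thinning the monocyte-like share was 17.3%, the stem and progenitor-like share 22.3% and the erythroid-like share 1.26%. With 1 library left out the ranges were 12.1% to 21.8%, 11.9% to 29.6%, 16.2% to 28.6% and 8.51% to 24.2%, in the same order. The highest monocyte-like share was without suffix 3, the highest erythroid-like share without suffix 1, and the lowest endothelial-like and highest stem and progenitor-like shares without suffix 2.

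The late neutrophil count was 32 with markers above 0, 3 above 1, 1 after thinning, 25 with at least 2 markers and 3 without sub-clusters 3, 4 and 8. The mast cell and basophil count was 21 above 0, 6 after thinning and 35 with 2 markers. With 2 markers the B, T and natural killer counts were 20, 7 and 11. The erythroid count was 132 after thinning. With a minimum of 0.1 UMIs per 10,000 the called genes were 336 higher and 233 lower against the *Mpo* cells and 399 higher and 648 lower against the *C1qb* cells.

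Leaving out the 9 cells of sub-cluster 12, or sub-clusters 3, 4 and 8, was chosen after seeing the data. Without the 9 cells the log2 ratios to the *C1qb* cells reversed for *Hbb-y* (-3.59), *Hba-x* (-4.12) and *Hba-a1* (-0.21), because those cells hold nearly all of these UMIs. The level of *S100a9* was 0.00556 UMIs per 10,000 without suffix 2, 0.0202 without suffix 1, 0.00771 without sub-clusters 3, 4 and 8 and 0.0507 as a mean over cells, *Cdh5* was 0.463 without those sub-clusters and *Cpa3* 0.210 as a mean over cells. The cause of the other shifts was not tested. Depth acts on the rare lineages in both directions. A marker of a few UMIs can be missed in cells of 5,000 UMIs, whereas in deep cells a few UMIs can stay below the limit of 0.5 per 10,000. No paired analysis was possible because no result comes from a test.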
